A study of Mus musculus with 16 samples.

Results

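The 46 genes described here act in the DNA damage response: they detect broken or stalled DNA, signal that damage to the cell cycle, and carry out its repair. They were given as a list of mouse symbols, and each was matched to 1 Ensembl gene of the 33072 in the count table. Mre11 is named Mre11a in that list and in the gene annotation used. RNA was measured in 4T1 and 67NR cells, BALB/c mouse lines from the same spontaneous triple-negative mammary tumor, of which 4T1 is metastatic and 67NR is not. Each line received vehicle (DMSO) or 15 µM CIX, a synthetic omega-3 fatty acid derivative that inhibits cytosolic phospholipase A2 alpha (cPLA2α), for 24 h before RNA isolation. This gave the groups 67NR vehicle, 67NR CIX, 4T1 vehicle and 4T1 CIX, each with 4 samples that the study calls biological replicates. With 1 line of each kind, the metastatic potential and the line cannot be told apart.

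A double-strand break is bound by the Mre11a, Rad50 and Nbn complex, which activates the kinase Atm, while single-stranded DNA coated by replication protein A activates Atr and then Chek1. The break is rejoined directly by end joining, with the Ku proteins Xrcc5 and Xrcc6 and ligase IV, or is resected and copied from the sister chromatid by homologous recombination with Brca1, Bard1, Palb2 and Brca2. Crosslinks between the strands are handled by the Fanconi anaemia proteins. Many genes of recombination and of the checkpoint are transcribed mainly when cells replicate their DNA, whereas end joining operates throughout the cell cycle.

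The total estimated count per sample lay between 21715700 and 29450629. The lowest estimated count of any member in any sample was 46.9, and all 46 members passed the filter on low values in each of the comparisons. Levels are given as CPM, which are counts relative to library size after TMM scaling, and 3 counts correspond to between 0.108 and 0.137 CPM. Levels of different genes are compared only on approximate TPM, which also divides by transcript length. The sources do not say how tximport scaled the counts, and if they were already free of length, each ratio between genes would be off by a factor that is the same in all samples. On that scale the group means of the members ran from 1.21 TPM for Polq in 4T1 vehicle to 180 TPM for Topbp1 in 67NR vehicle. A gene is said to rise, fall or differ where its limma-voom p-value, adjusted over all genes tested, was below 0.05, and is said to pass the strict threshold where it was below 0.001, the value used by the study. The epithelial markers Cdh1, Epcam, Krt7, Krt8, Krt18 and Krt19 were at 58.5 CPM or more in every 4T1 sample and at 2.6 CPM or less in every 67NR sample, so that in 67NR, labelled as mammary carcinoma too, they were very low. Epcam, Krt18 and Krt19 were at 0 in some of its samples. The 8 markers of blood and vessel cells were at or below 2.22 CPM in 4T1 and 7.46 CPM in 67NR. The libraries numbered 2, 3 and 4 had the highest summed TPM of replication genes in their groups and number 13, of 67NR vehicle, had high values of several members, so counts are also given without these 4 libraries.

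The members that passed the strict threshold for CIX in either line, and Xrcc5, are protein-coding genes at these GRCm38 positions. Rad18 (ENSMUSG00000030254) lies at chr6:112619850-112696686 on the minus strand and Fancd2 (ENSMUSG00000034023) at chr6:113531682-113597017 on the plus strand. Rad50 (ENSMUSG00000020380) lies at chr11:53649519-53707319, minus strand, Lig4 (ENSMUSG00000049717) at chr8:9969049-9977686, minus strand, and Fancm (ENSMUSG00000055884) at chr12:65075603-65132058, plus strand. Exo1 (ENSMUSG00000039748) lies at chr1:175880581-175913489 and Xrcc5 (ENSMUSG00000026187) at chr1:72307421-72394952, both on the plus strand. Values are summed over all transcripts of a gene, so exons and UTRs are not told apart.

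The vehicle groups were compared to see how the lines differ without CIX. In 4T1 vehicle the direct end-joining genes Xrcc5 and Lig4 and the nuclear and mitochondrial DNA ligase Lig3 were higher than in 67NR vehicle, and the single-strand coating protein Rpa1, the polymerase of alternative end joining Polq and the break sensor Rad50 were lower. The strict threshold was passed by 14 members, 4 higher and 10 lower in 4T1, where 40.0% of all genes tested passed it. Another 4 were higher and 7 lower at the wider threshold, which makes 8 higher and 17 lower in all. Over all genes 33.3% were higher and 34.1% lower, compared with 17.4% and 37% of the members. The groups did not overlap for 23 of 46 members, against 61.6% of all genes tested. The median log2 difference was -0.11 for the members and -0.01 for all genes.

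Lig3 was at 117, 111, 104 and 120 CPM in 4T1 vehicle and at 38.5, 29.2, 41.6 and 39.3 CPM in 67NR vehicle. The log2 difference was 1.60 ± 0.12 (standard error, adjusted p = 3.54e-06), and no samples overlapped. Lig3 works with the scaffold Xrcc1 in the repair of single-strand breaks, and Xrcc1 went the other way, with a log2 difference of -0.83 ± 0.08 (adjusted p = 2.45e-05). The ratio of Lig3 to Xrcc1 on the TPM scale was 0.75 ± 0.0784 in 4T1 vehicle and 0.139 ± 0.0208 in 67NR vehicle (SD, n = 4 each).

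The Ku subunits, whose proteins act as a heterodimer on broken ends, showed the same contrast. Xrcc5, the larger subunit, was at 134, 122, 122 and 122 CPM in 4T1 vehicle and at 50.8, 48.4, 54.4 and 43.4 CPM in 67NR vehicle. All 4T1 values were higher, with a log2 difference of 1.34 ± 0.08 (adjusted p = 1.37e-06). Xrcc6, the smaller subunit, was lower in 4T1 by a log2 difference of -0.51 ± 0.09 (adjusted p = 7.47e-04). As a result the Xrcc5 to Xrcc6 ratio in TPM was between 0.839 and 0.944 in the 4T1 vehicle samples and between 0.228 and 0.277 in those of 67NR. Lig4, the ligase that seals the ends, was at 21.2, 23.2, 19.7 and 23.2 CPM in 4T1 vehicle against 8.58, 9.33, 8.83 and 9.39 CPM in 67NR vehicle. Its log2 difference was 1.26 ± 0.11 (adjusted p = 9.03e-06), again without overlap.

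Among the members that were lower in 4T1 vehicle, Polq was at 5.78, 5.26, 3.06 and 5.81 CPM, compared with 12.8, 11.2, 13.9 and 14.7 CPM in 67NR vehicle. This was a log2 difference of -1.44 ± 0.21 (adjusted p = 2.68e-04). Rad50, the ATPase of the break-sensing complex, was at 22, 34.7, 33.8 and 47.7 CPM in 4T1 against 69.0, 93.6, 85.2 and 86.8 CPM in 67NR. The 4T1 values spread over more than the 67NR values but stayed below them, with a log2 difference of -1.33 ± 0.21 (adjusted p = 3.48e-04). Rpa1, the large subunit of replication protein A, was at 150, 120, 106 and 112 CPM in 4T1 and at 277, 272, 261 and 409 CPM in 67NR, a log2 difference of -1.32 ± 0.18 (adjusted p = 1.41e-04). The value of 409 CPM came from library 13, and without it the difference was smaller at -1.14 but still passed the strict threshold.

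The other members that passed the strict threshold between the vehicle groups were Chek2, a checkpoint kinase activated by Atm, at 0.91 on the log2 scale, and, on the lower side, Timeless at -1.26, Rad18 at -1.20, Brca2 at -1.19, Fanci at -1.17 and Fancd2 at -0.86. At the wider threshold Atm was higher by 1.31, Chek1 by 1.06, Trp53bp1 by 0.37 and Wrn by 0.35. Lower in 4T1 were Topbp1 (-0.84), Rpa2 (-0.74), Fancg (-0.64), Tipin (-0.63), Rad54b (-0.63), Palb2 (-0.44) and Fanca (-0.27). The remaining 21 members, among them Brca1 at -0.36 and Bard1 at -0.22, did not pass. Palb2, Wrn, Trp53bp1 and Fanca kept their calls in between 3 and 6 of the 8 fits with 1 sample removed. The strict count was 14, and it was 8 without 67NR vehicle 5, 67NR vehicle 9 or 4T1 vehicle 11 and 7 without 4T1 vehicle 7.

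**Figure D1:**
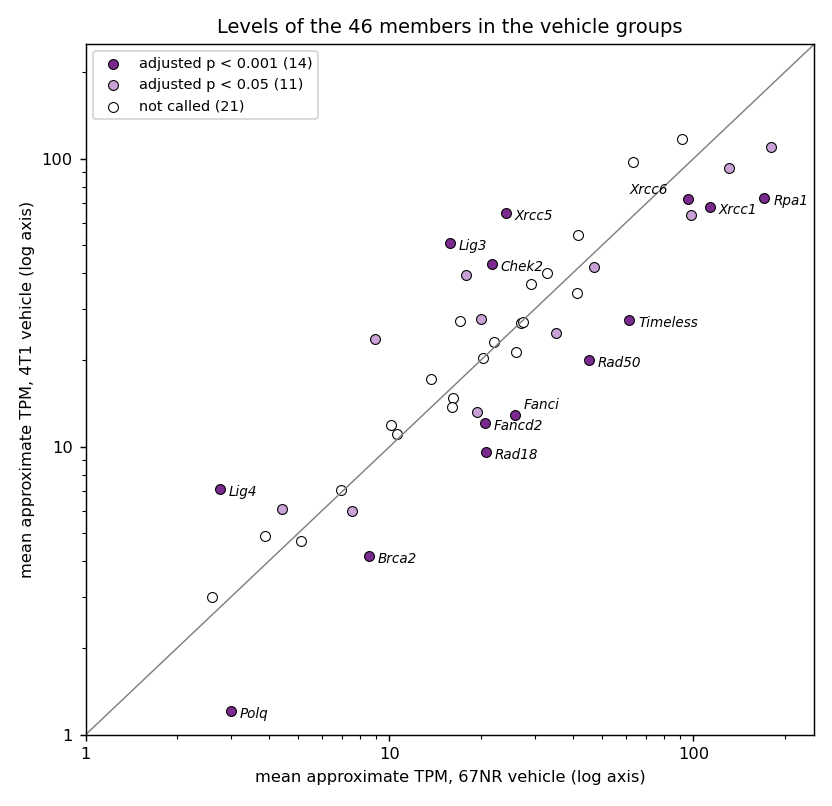
Mean approximate TPM of the 46 members in 67NR vehicle (horizontal, log axis) and 4T1 vehicle (vertical, log axis), 4 samples each, with the line of equal levels. Filled points passed a limma-voom adjusted p of 0.001 (14 members, named), light points one of 0.05 (11) and open points neither (21), and Lig3, Xrcc5, Chek2 and Lig4 lie above the line.

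In 67NR cells treated with CIX 25 of the 46 members fell and only Trp53bp1, a break-binding protein that limits resection, rose, whereas 9.26% of all genes tested fell and 8.51% rose. The fall was largest in the checkpoint kinase Chek1 and in Rpa2, the helicase Brip1, the recombination factor Rad51ap1 and the nuclease Exo1, all with levels reduced by a factor of between 1.93 and 2.12. The median log2 fold change was -0.47 for the members and -0.01 for all genes, and 39 of 46 members had a value below 0. The groups did not overlap for 28 members, 26 of them lower with CIX, against 23.4% of all genes. In bulk RNA, fewer cells that express a gene and less of its RNA per cell cannot be told apart.

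At the strict threshold the 67NR comparison called only Exo1, where 0.389% of all genes passed. This count was 0 when any of 7 samples was left out, each of 67NR vehicle 1, 5, 9 and 13 and 67NR CIX 6, 10 and 14, and 2 without 67NR CIX 2. The count of members that fell at the wider threshold ranged from 22 to 26 over these 8 fits, and was 27 without libraries 2 and 13 together.

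The replication genes Mcm2 to Mcm7, Pcna, Gins1, Gins2, Cdc45, Cdc6, Ccne1, Ccne2, Rrm1, Rrm2, Tyms, Pola1, Pold1 and Pole, taken as a list of 19 genes transcribed in S phase, fell together with the members. Of them 17 fell in 67NR, with a median log2 fold change of -0.89. Their summed level was between 2801 and 2893 TPM in 67NR vehicle and between 1439 and 1810 TPM in 67NR CIX, while that of the 46 members went from between 1636 and 1806 TPM to between 1145 and 1289 TPM. The part of the replication genes' change in the fall of the members was not tested.

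By role, the fall in 67NR covered 7 of 10 members of homologous recombination, 6 of 7 of the Fanconi anaemia pathway, 4 of 7 checkpoint members, 2 of 3 replication protein A subunits and 2 of 3 in mismatch repair and lesion bypass. It covered 2 of 8 members of break sensing and resection, 1 of 3 of single-strand break and alternative end joining and 1 of 5 of direct end joining, where 9.26% of all genes tested in 67NR fell. The median log2 fold changes of the recombination, Fanconi and checkpoint members were -0.61, -0.69 and -0.74, whereas the median of the 5 direct end-joining members was 0.03. This difference between roles is a description, and no test of it was made.

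Exo1, an exonuclease that resects breaks and acts in mismatch repair, was at 39.3, 34.8, 36.5 and 31.1 CPM in 67NR vehicle and at 20.8, 17.8, 17.2 and 18.4 CPM in 67NR CIX. All CIX samples were lower, with a log2 fold change of -0.95 ± 0.09 (adjusted p = 9.09e-04). Rpa2, the subunit of replication protein A that is phosphorylated upon damage, went from 60.1, 67.5, 57.0 and 65.3 CPM to 34.1, 28.9, 34.2 and 24.4 CPM. Its log2 fold change was -1.07 ± 0.12 (adjusted p = 0.00135), and again no samples overlapped.

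Fancm, a translocase that recruits the Fanconi core complex to stalled forks, was at 21.0, 21.7, 24.9 and 22.6 CPM in vehicle and 14.0, 11.4, 12.7 and 12.9 CPM in CIX treated 67NR cells, with a log2 fold change of -0.84 ± 0.10 (adjusted p = 0.00143). Timeless, which protects the replication fork together with Tipin, was at 99.7, 97.2, 97.6 and 107 CPM and then at 68.2, 55.5, 49.3 and 50.6 CPM. This was a log2 fold change of -0.87 ± 0.11 (adjusted p = 0.00171). In both genes the highest CIX value was that of library 2 and lay below the lowest vehicle value.

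The other recombination members that fell in 67NR were Rad51ap1 (log2 fold change -1.0), Xrcc3 (-0.79), Rad54b (-0.78), Bard1 (-0.62), Rad51c (-0.60), Xrcc2 (-0.58) and Palb2 (-0.56). Of the 31-base words of Rad54b 35% also occur in Fsbp, so reads of the genes could be assigned to either. In the Fanconi anaemia pathway Brip1 (-1.03), Fancb (-0.90), Fancd2 (-0.69), Fanci (-0.58) and Fanca (-0.57) fell besides Fancm. Among the checkpoint genes these were Chek1 (-1.09), Tipin (-0.77) and Topbp1 (-0.74), and Rpa1 (-0.68), Polh (-0.47), Xrcc1 (-0.47), Nbn (-0.45), Xrcc6 (-0.36) and Msh6 (-0.33) completed the list. Trp53bp1 rose by 0.45, from 29.3, 32.2, 35.8 and 39.3 CPM to 41.0, 47.8, 53.6 and 46.7 CPM. Its call at the wider threshold was lost in 6 of the 8 fits without a sample, where the largest adjusted p was 0.0927. The calls of Xrcc2, Nbn, Xrcc1, Rpa1 and Msh6 were lost in between 1 and 5 of these fits, and the other 20 were kept in each.

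Of the 20 members that did not pass in 67NR, Lig4 had a value of 0.27 (adjusted p = 0.0763) and Atr one of 0.37 (adjusted p = 0.0889), and Rad50, Prkdc and Xrcc5 were near 0. Brca1 was at -0.47 (adjusted p = 0.077) and Brca2 at -0.38 (adjusted p = 0.076). Rad54l, a recombination motor protein, had the widest error of all members, -1.23 ± 0.91, because its CPM values were 55.3, 27.1, 98.9 and 15.7 with vehicle and 128, 9.07, 7.73 and 8.22 with CIX. The value of 128 was that of library 2.

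**Figure D2:**
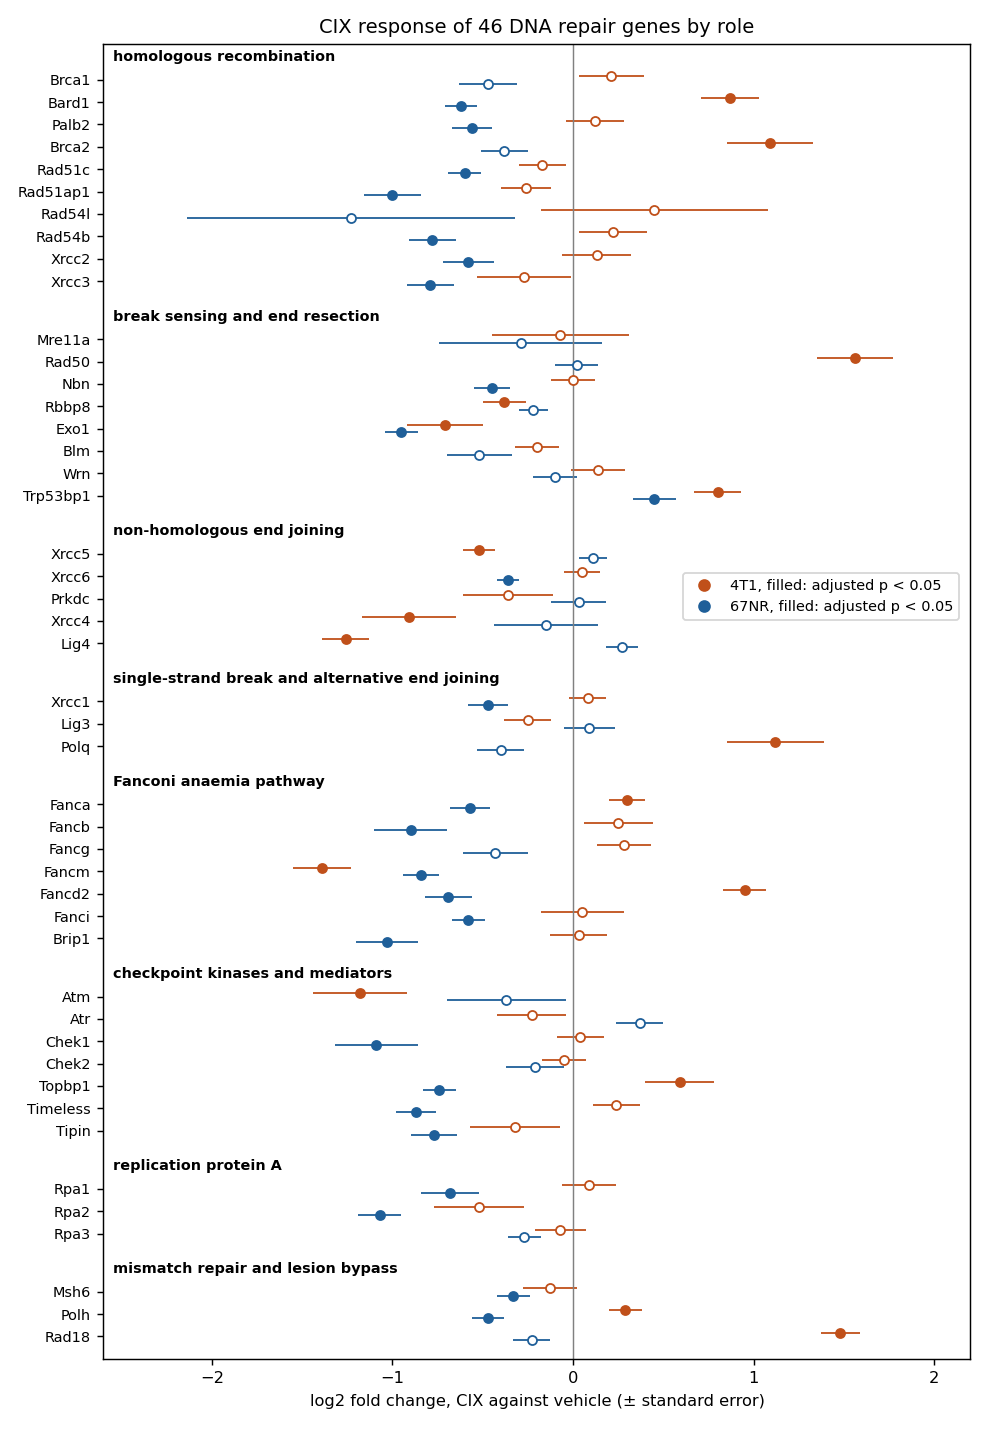
Log2 fold change of each of the 46 members between CIX and vehicle in 4T1 and in 67NR, with standard errors from limma-voom (4 samples per group) and grouped by role. Filled points have an adjusted p below 0.05, which holds for 17 members in 4T1 and 26 in 67NR. In 67NR most points lie to the left of 0, and in 4T1 they spread to both sides.

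In 4T1 cells the members did not move in a common direction. Rad50 and the ubiquitin ligase Rad18 rose by a factor of 2.94 and 2.79, and Fancm and Lig4 fell by a factor of 2.61 and 2.4. In all 10 members rose and 7 fell, against 21.9% and 20.8% of all genes tested, and thus 21.7% and 15.2% of the members. The strict threshold was passed by 5 members, where 9.34% of all genes passed. The groups did not overlap for 15 members, 10 higher and 5 lower, against 40.0% of all genes. The median log2 fold change was 0.04 for the members and -0.01 for all genes.

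The replication genes changed less evenly in 4T1, with 2 higher (Gins2 and Pold1), 5 lower and a median of -0.25. Their summed level was between 2132 and 2654 TPM with vehicle and between 1626 and 2154 TPM with CIX, and the summed level of the 46 members was between 1474 and 1632 TPM and between 1363 and 1627 TPM. These summed levels overlapped between the treatments for the members and also for the replication genes. The part of the replication genes' change in the members' values was not tested.

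Rad18, which ubiquitinates the sliding clamp Pcna at stalled forks, was at 15.0, 14.3, 16.2 and 17.1 CPM in 4T1 vehicle and at 44.1, 45.0, 40.2 and 47.5 CPM in 4T1 CIX. The groups were far apart, with a log2 fold change of 1.48 ± 0.11 (adjusted p = 4.76e-05). Rad50 went from 22, 34.7, 33.8 and 47.7 CPM to 88.1, 88.2, 97.8 and 127 CPM. Every CIX sample was above every vehicle sample (log2 fold change 1.56 ± 0.21, adjusted p = 5.72e-04), although the vehicle samples differed among themselves by a factor of more than 2. Its partner genes did not pass: Nbn had an adjusted p of 0.985 and Mre11a at -0.07 ± 0.38 on the log2 scale. The Rad50 to Nbn ratio in TPM was therefore between 0.803 and 1.79 with vehicle and between 3.11 and 4.7 with CIX.

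Fancd2, which is ubiquitinated together with Fanci when crosslinks block replication, was at 15.3, 15.9, 18.7 and 20.9 CPM in 4T1 vehicle and at 31.8, 35, 34.7 and 35.7 CPM in 4T1 CIX (log2 fold change 0.95 ± 0.12, adjusted p = 4.52e-04). The CIX values lay close together and above all vehicle values. Fanci had a log2 fold change of 0.05 ± 0.23, and the Fancd2 to Fanci ratio in TPM was 1.02 ± 0.335 with vehicle and 1.84 ± 0.299 with CIX (SD, n = 4 each). In 67NR, where Fancd2 and Fanci both fell, that ratio was 0.8 ± 0.105 with vehicle and 0.744 ± 0.106 with CIX.

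Of the members that fell past the strict threshold, Lig4 went from 21.2, 23.2, 19.7 and 23.2 CPM to 8.55, 8.99, 10.4 and 8.75 CPM (log2 fold change -1.26 ± 0.13, adjusted p = 1.45e-04). With CIX the Lig4 level of 4T1 was thus close to the 8.58 to 9.39 CPM of 67NR vehicle. Fancm went from 23.2, 23.6, 18.2 and 23.5 CPM to 10.5, 8.39, 7.82 and 7.66 CPM (log2 fold change -1.39 ± 0.16, adjusted p = 2.34e-04). It was the only member besides Exo1 that fell in both lines, which share no samples. These genes are 4.35% of the members, against 2.76% of all genes tested in both lines.

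Among the direct end-joining members 3 of 5 fell in 4T1, where 20.8% of all genes fell, and of the 10 other end-joining genes described further on 1 fell and 1 rose, so the count of 3 is a description of these 5 genes with no test of the role. Besides Lig4 the members that fell were its partner Xrcc4, at -0.91 ± 0.26, and Xrcc5, at -0.52 ± 0.09 (adjusted p = 0.00136). The study lists Xrcc5 among its differentially expressed genes in 4T1, which it called at an adjusted p below 0.001. Xrcc5 went from 134, 122, 122 and 122 CPM to 82.1, 89.7, 92.8 and 88.9 CPM in 4T1, without overlap. In 67NR it was at 50.8, 48.4, 54.4 and 43.4 CPM with vehicle and at 55.7, 50.4, 56.6 and 53.1 CPM with CIX, and those groups overlapped (log2 fold change 0.11 ± 0.08, adjusted p = 0.35). Xrcc6 did not pass in 4T1 (0.05 ± 0.10), so the Xrcc5 to Xrcc6 ratio in TPM went from 0.9 ± 0.0462 to 0.608 ± 0.0542 there, and from 0.251 ± 0.0213 to 0.35 ± 0.0241 in 67NR (SD, n = 4 each).

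The other members that rose in 4T1 were Polq (log2 fold change 1.12), Brca2 (1.09), Bard1 (0.87), Trp53bp1 (0.80), Topbp1 (0.59), Fanca (0.30) and Polh (0.29). Bard1, the obligate partner of Brca1 in its ubiquitin ligase, was at 20.3, 20.3, 18.5 and 21.1 CPM with vehicle and at 27.7, 39.5, 38.6 and 44.8 CPM with CIX, and the lowest of these CIX values was that of library 4. Brca1 itself was at 0.21 ± 0.18 (adjusted p = 0.37). The other members that fell were Atm (-1.18), Exo1 (-0.71) and Rbbp8 (-0.38). Exo1 was at 47.6, 38.3, 37.8 and 39.2 CPM with vehicle and at 40.1, 20.9, 20 and 24 CPM with CIX, where the value of 40.1 CPM, from library 4, made the groups overlap. This meant that of the apical kinases Atm fell while Atr, at -0.23, and Prkdc, at -0.36, did not pass.

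Of the 5 strict calls in 4T1, Rad18 and Lig4 kept theirs in all 8 fits without a sample, Fancm kept it in 3 and Fancd2 and Rad50 each in 2. All 5 kept the wider call in all 8. The strict count was 2 without 4T1 vehicle 7 or 4T1 CIX 8, 12 or 16, and 3 without 4T1 vehicle 11. The wider calls of Topbp1, Fanca, Polh, Exo1 and Rbbp8 were lost in between 4 and 7 of these fits, and the other 12 were kept in each. Without libraries 3 and 4 together 10 members rose and 7 fell.

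**Figure D3:**
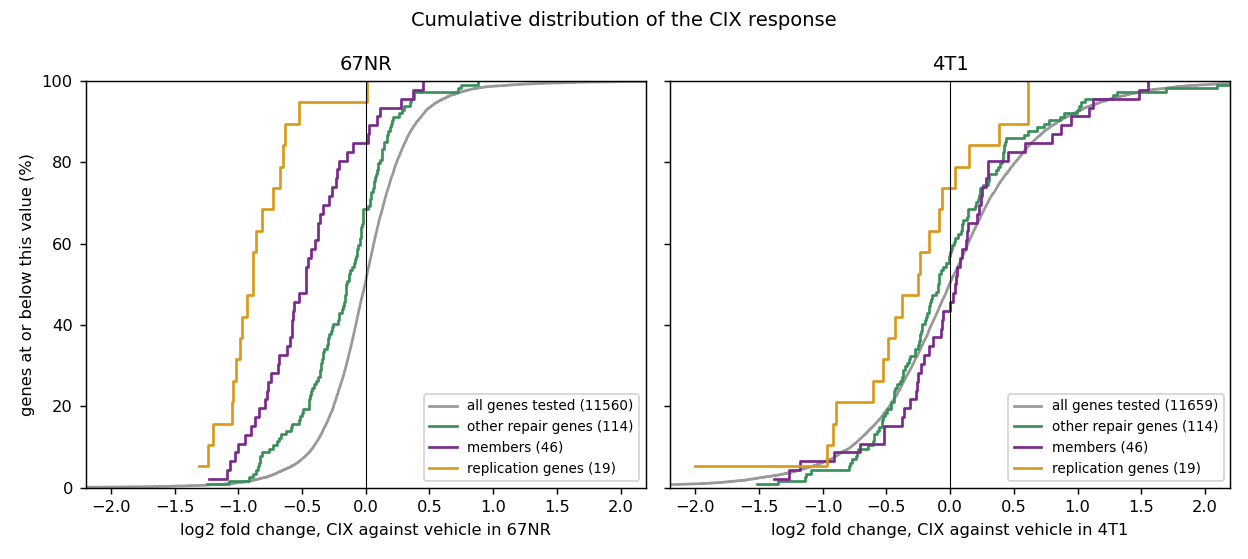
Cumulative distribution of the log2 fold change between CIX and vehicle in 67NR (left) and 4T1 (right) for the members (46), other repair genes (114 tested), replication genes (19) and all genes tested. In 67NR the members lie between the replication genes and all genes (medians -0.47, -0.89 and -0.01), and in 4T1 their line stays close to that of all genes (medians 0.04 and -0.01).

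The response to CIX was compared between the lines by an interaction term over all 16 samples, which tests the difference itself. Of the members 24 had a more positive and 3 a more negative response in 4T1 than in 67NR, against 15.1% and 14.2% of all genes tested. The strict threshold was passed by 10 members, where 7.86% of all genes passed. The median difference was 0.54 on the log2 scale for the members and -0.02 for all genes. The 3 more negative members, Lig4, Xrcc5 and Fancm, were among those that fell in 4T1.

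Among the strict calls the members with the most positive difference were Rad18 (1.71 ± 0.14, adjusted p = 2.74e-06), Fancd2 (1.64 ± 0.17, adjusted p = 1.08e-05), Rad50 (1.53 ± 0.26, adjusted p = 4.28e-04) and Bard1 (1.49 ± 0.19, adjusted p = 5.33e-05). They came about in different ways. In 67NR Rad18 was at 40.2, 33.7, 33.0 and 36.1 CPM with vehicle and at 34.2, 29.2, 31.6 and 28.3 CPM with CIX, which did not pass (adjusted p = 0.135). Rad50 was at 69.0, 93.6, 85.2 and 86.8 CPM and at 94.9, 71.3, 89.3 and 87.8 CPM there, with fully overlapping groups. Fancd2 and Bard1 moved in opposite directions in the lines. In 67NR Fancd2 went from 27.4, 32.0, 31.8 and 36.8 CPM to 17.6, 24.0, 19.3 and 19.3 CPM, and Bard1 from 25.3, 23.3, 23.9 and 20.2 CPM to 15.1, 14.2, 16.5 and 15.2 CPM, in both cases without overlap.

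For Rad18, Fancd2, Rad50, Brca2 and Polq the level of 4T1 vehicle was below that of 67NR vehicle, and the level of 4T1 CIX was in or near the range of 67NR vehicle. Rad18 reached a mean of 44.2 CPM against 35.8 CPM in 67NR vehicle, Fancd2 34.3 against 32.0 CPM and Polq 11.0 against 13.2 CPM. The comparison of the vehicle groups and that of the response in 4T1 share the 4T1 vehicle samples, so these values are set side by side without a test.

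At the other end, Lig4 had a difference of -1.54 ± 0.15 (adjusted p = 5.22e-06) and Xrcc5 one of -0.64 ± 0.11 (adjusted p = 5.68e-04). In 67NR Lig4 was at 8.58, 9.33, 8.83 and 9.39 CPM with vehicle and at 11.3, 11.3, 10.2 and 11.4 CPM with CIX. The samples of 67NR did not overlap but the change did not pass, as given above. Polh, the polymerase that copies past ultraviolet lesions, and Fanca, a subunit of the Fanconi core complex, were the strict calls with the smallest positive difference, 0.76 ± 0.13 (adjusted p = 4.27e-04) and 0.86 ± 0.14 (adjusted p = 3.30e-04).

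Polh was at 47.0, 47.6, 46.7 and 38.2 CPM in 67NR vehicle, 37.0, 29.9, 31.8 and 32.4 CPM in 67NR CIX, 44.4, 42.9, 38.3 and 43.1 CPM in 4T1 vehicle and 50.5, 52.1, 54.6 and 51.7 CPM in 4T1 CIX. Fanca was at 55.6, 54.6, 54.7 and 54.0 CPM, 36.3, 47.0, 34.5 and 32.9 CPM, 51.0, 42.7, 46.9 and 42.9 CPM and 60.3, 54.3, 54.6 and 58.2 CPM in the same order. Both genes were lower with CIX in every 67NR sample and higher with CIX in every 4T1 sample, and both passed at the wider threshold in each line. Topbp1, an activator of Atr, at 1.33, and Timeless at 1.11 were the remaining strict calls.

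At the wider threshold the response of Polq (1.51), Brca2 (1.47), Fancb (1.15), Chek1 (1.13), Brip1 (1.05), Rad54b (1.00), Rpa1 (0.77), Rad51ap1 (0.74), Fancg (0.71), Xrcc2 (0.70), Palb2 (0.68), Brca1 (0.68), Xrcc1 (0.54), Nbn (0.45), Rad51c (0.43) and Xrcc6 (0.41) was more positive in 4T1. Fancm, which fell in both lines, fell further in 4T1, with a difference of -0.55 ± 0.18 (adjusted p = 0.0287). Brca1, Rad51c, Xrcc2, Nbn, Fancg and Fancm kept their calls in between 3 and 10 of the 16 fits without a sample, and the other 21 in each. Exo1, which also fell in both, had a difference of 0.24 ± 0.25 (adjusted p = 0.516), and Trp53bp1, the only member that rose in both, one of 0.35 ± 0.18 (adjusted p = 0.16). The strict count of 10 was 5 without 67NR vehicle 5, 67NR CIX 10 or 14 or 4T1 vehicle 7, and 6 without 67NR vehicle 1. Rad18, Fancd2, Bard1 and Lig4 kept their strict call in all 16 fits without a sample.

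**Figure D4:**
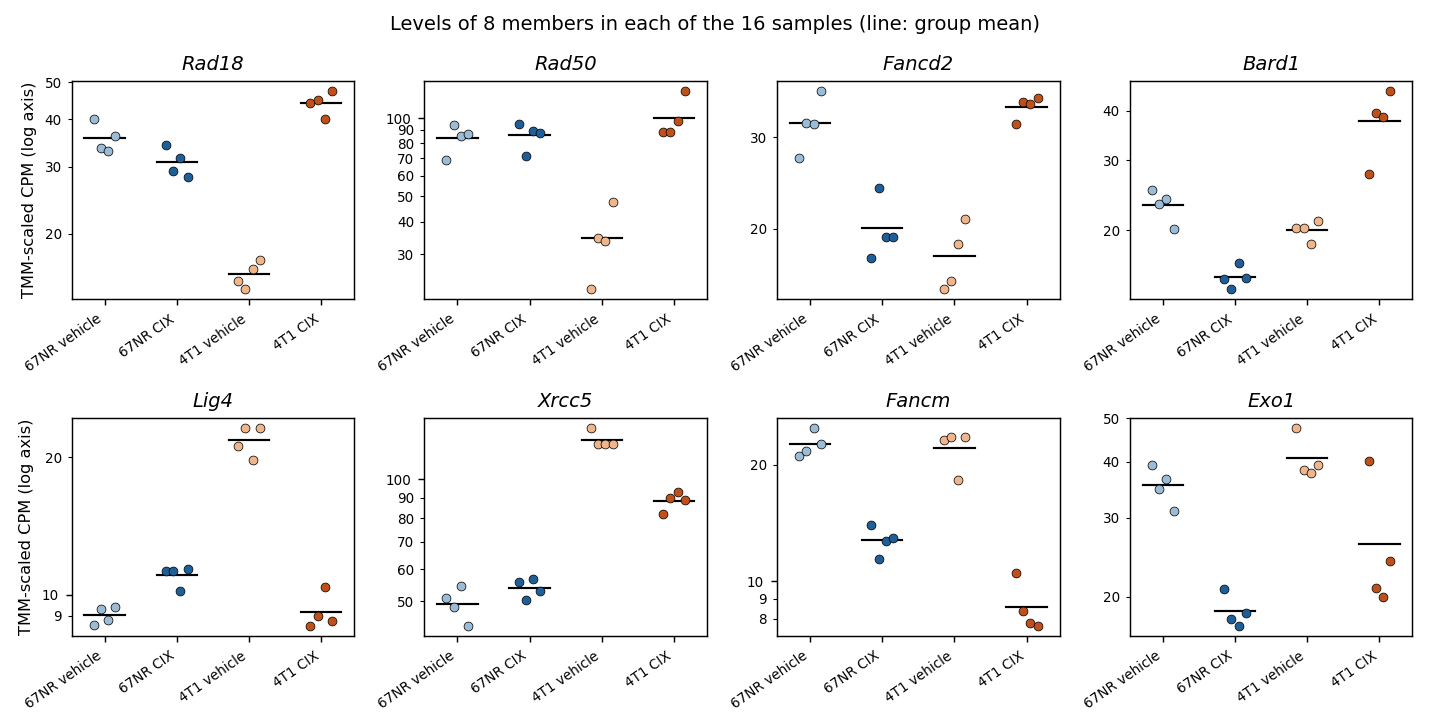
TMM-scaled CPM (log axis) of Rad18, Rad50, Fancd2, Bard1, Lig4, Xrcc5, Fancm and Exo1 in each of the 16 samples, with the group mean as a line. The 4T1 vehicle samples of Rad18, Rad50 and Fancd2 sit below the 67NR vehicle samples and those of 4T1 CIX do not, whereas the 4T1 CIX samples of Lig4 (8.55 to 10.4 CPM) reach the range of 67NR.

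Taking the calls of both lines side by side, 5 members rose in 4T1 and fell in 67NR (Bard1, Fanca, Fancd2, Topbp1 and Polh), 10.9% of them, against 1.71% of all 10614 genes tested in both lines. There were 4 that rose in 4T1 and did not pass in 67NR (Brca2, Rad50, Polq and Rad18), 8.7% against 17.1% of all genes, and 18 that fell in 67NR without passing in 4T1, 39.1% against 4.9%. Of the first 5 only Bard1 and Fancd2 kept their call in 4T1 without 4T1 vehicle 7, 11 or 15 or 4T1 CIX 8 or 16. Another 5 fell in 4T1 without passing in 67NR (Rbbp8, Xrcc5, Xrcc4, Lig4 and Atm), 10.9% against 16.8% of all genes. Exo1 and Fancm fell in both lines, 4.35% against 2.76% of all genes, and Trp53bp1 rose in both, 2.17% against 3.08%. The 11 that passed in neither line, 23.9% against 48.3% of all genes, were Brca1, Rad54l, Mre11a, Blm, Wrn, Prkdc, Lig3, Fancg, Atr, Chek2 and Rpa3. Across the 46 members the log2 fold changes of the lines had a Pearson r of 0.01 and a Spearman rho of -0.08, and across the 10614 genes tested in both lines these were 0.17 and 0.21. This is given as a description across genes, which are not independent replicates. The sign was the same in 18 of 46 members (39.1%) and in 59.1% of all genes, and 23 members (50%) were above 0 in 4T1 and below 0 in 67NR, against 20.8% of all genes.

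**Figure D5:**
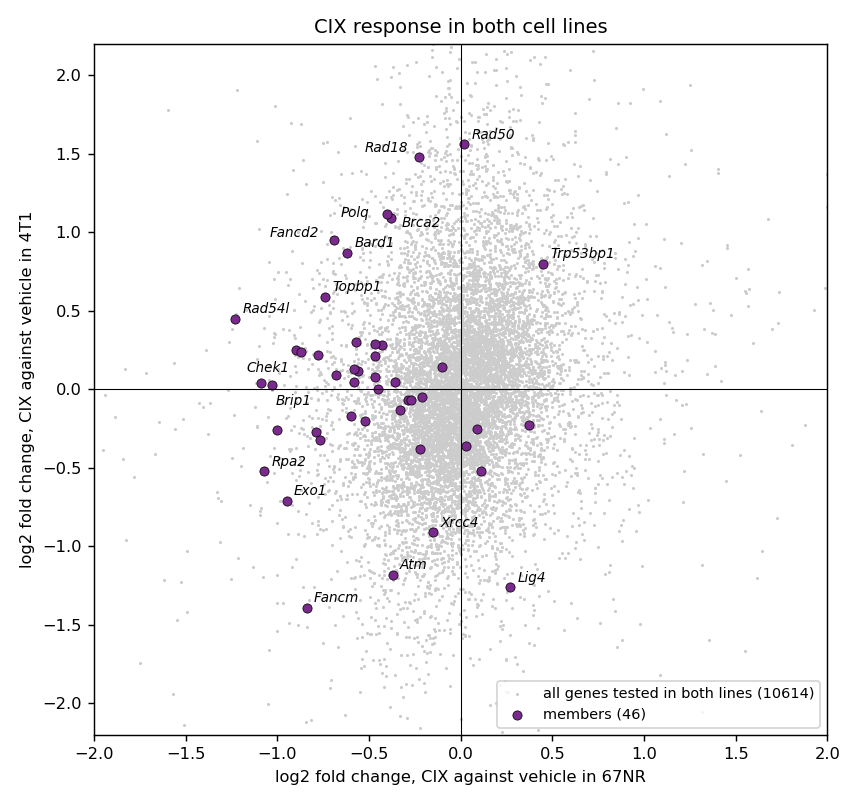
Log2 fold change between CIX and vehicle in 67NR (horizontal) and 4T1 (vertical) of the 46 members and of the 10614 genes tested in both lines (134 of them lie beyond the axes). The members lie mostly to the left of 0, with Rad18, Brca2, Polq, Fancd2 and Bard1 at the upper left and Fancm at the lower left.

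Other genes of the same pathways gave context for the members. Of 115 further repair and damage signalling genes 114 were tested in either line, and 30 of them fell and 3 rose in 67NR while 25 fell and 17 rose in 4T1. These are 26.3% lower and 2.63% higher in 67NR, against 9.26% and 8.51% of all genes, and 21.9% lower and 14.9% higher in 4T1, against 20.8% and 21.9% of all genes. Their median log2 fold change was -0.15 in 67NR and -0.09 in 4T1. The counts of the single lists that follow are to be read against the same shares of all genes. In the 24 other recombination genes 11 fell in 67NR, among them the helicase Recql4 at -0.86 ± 0.07 (adjusted p = 5.29e-04). In 4T1 6 of them rose and 6 fell, with Rad52, which anneals single strands, at 2.10 ± 0.23 (adjusted p = 2.04e-04), the fork-remodelling Smarcal1 at 1.69 ± 0.16 (adjusted p = 1.06e-04) and the nuclease Dna2 at -1.51 ± 0.19 (adjusted p = 3.77e-04).

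In 67NR 7 of 20 other damage signalling genes fell, including Clspn, which helps Atr activate Chek1, at -0.88 ± 0.13 (adjusted p = 0.00368), and 3 of 12 other Fanconi anaemia genes and 3 of 15 other mismatch repair and bypass genes fell. Of 14 base excision repair genes tested 5 fell and 1 rose in 67NR and 5 fell and 3 rose in 4T1, and DNA ligase Lig1 rose in 4T1 (1.31 ± 0.22, adjusted p = 0.00147) and fell in 67NR (-0.84 ± 0.09, adjusted p = 0.00111). Of 19 nucleotide excision repair genes 1 fell and 2 rose in 67NR, and 3 each rose and fell in 4T1. Of the 10 other end-joining genes 0 fell and 0 rose in 67NR, with a median log2 fold change of -0.05.

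In 4T1, 2 of 20 damage signalling genes rose and 3 fell, 1 of 10 end-joining genes rose and 1 fell, 2 of 12 Fanconi anaemia genes rose and 3 fell, and 4 of 15 mismatch repair and bypass genes fell. The last group included Msh3, a mismatch recognition gene, at -1.14 ± 0.14 (adjusted p = 3.25e-04) and the bypass scaffold Rev1 at -0.74 ± 0.11 (adjusted p = 8.13e-04). The end-joining factor Nhej1, which stabilises the Xrcc4 and Lig4 complex, fell by 1.35 ± 0.27 on the log2 scale (adjusted p = 0.00331).

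Genes that damage is known to induce through p53 were followed as a separate list. In 67NR 4 of 14 tested rose, 1 fell and the median was 0.29, and in 4T1 5 of 15 rose, 4 fell and the median was -0.02. These are 28.6% higher and 7.14% lower in 67NR and 33.3% and 26.7% in 4T1, against 8.51% and 9.26%, and 21.9% and 20.8%, of all genes tested. Cdkn1a, the cell cycle inhibitor p21, fell in 4T1 (log2 fold change -1.71 ± 0.36, adjusted p = 0.00452) and was at 0.05 ± 0.10 in 67NR (adjusted p = 0.773). Mdm2, the inhibitor of p53, fell in 4T1 by -0.54 and rose in 67NR by 0.40. Other genes of the list went up in 4T1, with mean levels from 33.7 to 96.3 CPM for Plk2 and from 8.51 to 16.7 CPM for Fas. Those of Phlda3 went from 5.52 to 11.2 CPM and those of Sesn1 from 10.4 to 17.5 CPM. The list thus did not move in a common direction in 4T1, where 5 rose and 4 fell. Trp53 itself was at 38.5 ± 5.51 CPM in 4T1 vehicle and at 239 ± 10.8 CPM in 67NR vehicle (SD, n = 4 each), a log2 difference of -2.65 ± 0.11 (adjusted p = 1.89e-07).

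The sequences before the transcription starts were read because many members moved together in 67NR, and were searched for motifs known from cell cycle and housekeeping promoters. The RefSeq promoter table (GRCm38.p6) held 40 starts of 36 of the 46 members. The 250 bases before each start were searched on both strands for E2F motifs (TTTCCCGC, TTTGGCGC, TTTCGCGC or TTTGCCGC), the NRF1 motif GCATGCGC, the CHR motif TTTGAA and the CCAAT box (CCAAT). An E2F motif was in 15% of the member starts, against 3.45% of the starts of genes tested in 67NR and 1.86% of all starts in the table. NRF1 was in 15%, against 4.55% and 2.26%, CCAAT in 47.5%, against 36.3% and 33.8%, and CHR in 5%, against 10.5% and 16%. The starts of members that fell in 67NR and those of the other members each had an E2F motif in 3 of 20. NRF1 was in 4 of 20 and 2 of 20. Matches are letters in these windows and do not show that a factor binds.

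The E2F motifs were in the promoters of Bard1, Brca2, Topbp1, Xrcc6, Fancg and Chek2. Of these Bard1, Topbp1 and Xrcc6 fell in 67NR, where 9.26% of all genes fell. Bard1, Brca2 and Topbp1 rose in 4T1, where 21.9% of all genes rose. The windows around all these E2F motifs are shown 5′ to 3′ on the strand of the gene, in GRCm38.p6, with the motif in capitals.
Bard1 (chr1:71103158-71103197, minus strand, 209 bases before the start): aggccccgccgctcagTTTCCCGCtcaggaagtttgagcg
Brca2 (chr5:150522437-150522476, plus strand, 168 bases before the start): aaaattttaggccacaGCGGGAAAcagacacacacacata
Topbp1 (chr9:103305182-103305221, plus strand, 129 bases before the start): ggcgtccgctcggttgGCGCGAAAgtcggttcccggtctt
Xrcc6 (chr15:82016307-82016346, plus strand, 46 bases before the start): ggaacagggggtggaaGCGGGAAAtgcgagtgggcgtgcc
Fancg (chr4:43010330-43010369, minus strand, 52 bases before the start): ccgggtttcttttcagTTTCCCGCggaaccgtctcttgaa
Chek2 (chr5:110839815-110839854, plus strand, 152 bases before the start): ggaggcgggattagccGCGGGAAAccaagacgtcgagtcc
Bard1 and Fancg carry the same 8 letters, TTTCCCGC, and Brca2, Xrcc6 and Chek2 carry them on the opposite strand, while Topbp1 has a different one of the 4 motifs.

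The members that fell past the strict threshold in 4T1, Fancm and Lig4, both had an NRF1 motif and no E2F motif, and Rad18, which rose most among those with a promoter entry, had none of the motifs in the last 120 bases. These 120 bases before the first listed start are shown in the same way, with every motif in capitals.
Fancm (chr12:65075483-65075602, plus strand): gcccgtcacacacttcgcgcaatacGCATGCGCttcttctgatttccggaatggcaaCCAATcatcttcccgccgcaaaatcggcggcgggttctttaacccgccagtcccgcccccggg
Lig4 (chr8:9977681-9977800, minus strand): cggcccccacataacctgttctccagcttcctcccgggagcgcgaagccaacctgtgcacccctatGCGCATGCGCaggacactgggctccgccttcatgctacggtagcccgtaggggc
Rad18 (chr6:112696671-112696790, minus strand): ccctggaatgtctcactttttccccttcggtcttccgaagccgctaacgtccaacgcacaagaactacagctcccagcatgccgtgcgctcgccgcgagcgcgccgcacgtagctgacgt
In Lig4 the NRF1 motif is read on both strands, overlapping itself, and in Fancm the capitals are NRF1 and then CCAAT. Polh, Atm, Fanci and Rpa2 also had an NRF1 motif, and of these Polh rose and Atm fell in 4T1, while Polh, Fanci and Rpa2 fell in 67NR. A further listed start of Lig4 had no motif in its last 120 bases. Members without an entry in the table were Rad54b, Xrcc2, Rad50, Nbn, Rbbp8, Exo1, Wrn, Prkdc, Fancd2 and Tipin.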

How the data were processed

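Stranded poly-A libraries of the 16 samples were sequenced single-end. The authors ran salmon (version 0.12 per the labels) against Ensembl GRCm38, aggregated to genes by tximport, and deposited a table of estimated counts without normalization. The labels name a human build, but every gene identifier is a mouse one. Of the values above 0, 0.0436% lay within 0.000001 of a whole number.

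Counts were rounded and scaled by TMM, and TPM was approximated with the mean transcript length of each gene in the GENCODE annotation of GRCm38. The scaling used in tximport is not given in the sources used here, and the counts were taken to depend on transcript length. A gene had to reach 1 TPM in all but at most 3 samples of the comparison (for the interaction, in either line). CIX was compared with vehicle within each line (8 samples each), the responses by an interaction term, and the vehicle groups with each other, by limma-voom (limma 3.58.1, edgeR 4.0.16, R 4.3.3) with Benjamini-Hochberg adjustment. Alternatives were edgeR's quasi-likelihood test, DESeq2 1.42.0, other scalings, no filter, sample weights, a common fit and leaving out samples. The floor of 3 counts covers counting error only, whereas standard errors and SDs include the spread between samples. No pair of replicates was a repeat, with a chi-square per gene of 18.1 or more.

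The members and all gene lists were chosen with earlier results of these data known. Values in every sample are given for the members past the strict threshold (the 4 highest and 4 lowest where over 8, the 3 highest and 3 lowest between the vehicle groups, filled up to 4 by the smallest p), and for Xrcc5. RT-qPCR and functional assays were not analysed here.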

Additional observations from a re-analysis of the deposited data

Results flagged for a closer look

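The response to CIX differed between 4T1 and 67NR, by the interaction term of limma-voom at an adjusted p below 0.001, in 10 members. The difference, 4T1 minus 67NR on the log2 scale, was 1.71 for Rad18, 1.64 for Fancd2, 1.53 for Rad50, 1.49 for Bard1, 1.33 for Topbp1, 1.11 for Timeless, 0.86 for Fanca, 0.76 for Polh, -0.64 for Xrcc5 and -1.54 for Lig4.

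In 7 of the 60 groups of 4 samples checked among the 15 members with values in every sample, 1 sample lay far from the other 3, where chance flags about 1 in 20, or 3 groups. The sample 4T1 vehicle 3 had 47.6 CPM of Exo1, against 37.8 to 39.2 CPM in the others, and 134 CPM of Xrcc5, against 122 CPM. In 67NR vehicle 13 Rpa1 was at 409 CPM, against 261 to 277 CPM, and Polh at 38.2 CPM, against 46.7 to 47.6 CPM. Timeless was at 64.7 CPM in 4T1 CIX 4, against 45.9 to 47.0 CPM. Fancm was at 18.2 CPM in 4T1 vehicle 11, against 23.2 to 23.6 CPM, and Lig4 at 10.2 CPM in 67NR CIX 10, against 11.3 to 11.4 CPM.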

How the results depend on the processing

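The direction of every member that rose, fell or differed at an adjusted p below 0.05 was the same in all alternatives run (16 for each comparison of 2 groups and 23 for the interaction). The counts of members called at 0.05, both directions together, stayed within a factor of 1.5. By direction, the 3 members with a more negative response in 4T1 became 5 without 67NR vehicle 13 and 6 with sample quality weights or without the 4 libraries that stand apart. The 1 that rose in 67NR became 2 without 67NR vehicle 13 or without those libraries and 3 with the weights, and 0 in 6 of the 8 fits without a sample. The strict counts moved more. For CIX in 4T1 the 5 members became 11 with DESeq2 and 10 each with sample quality weights and with all 16 samples in a common fit, and between 2 and 6 without a sample. For CIX in 67NR the 1 member became 20 with DESeq2, 6 with sample quality weights, 3 in the common fit, 0 with no scaling beyond library size and 0 without the filter on low values, and between 0 and 2 without a sample. The count of 0 with no scaling or no filter left Exo1 at an adjusted p by limma-voom of 0.00122 and 0.00144, and the common fit, which called other members, at 0.00367. For the interaction the 10 members became 16 with DESeq2 and between 5 and 11 without a sample, and between the vehicle groups the 14 became between 7 and 13 without a sample. The cause of these shifts was not tested. Over all genes DESeq2 called 1038 at the strict threshold in 67NR and limma-voom 45. Without the 4 libraries that stand apart, an alternative chosen after seeing the data, the strict counts were 4, 1, 8 and 12 and those at 0.05 were 17, 29, 27 and 29, in the order 4T1, 67NR, interaction and vehicle groups. The strict call in 67NR was then not Exo1, whose adjusted p by limma-voom was 0.00111. No paired analysis was made, because each sample carries its own number in the labels and no label names a pair or round. Whether samples of different groups were handled together is thus not known, and the tests treat all samples as independent. With no scaling the median log2 value of all genes was -0.0661 in 4T1 and -0.0676 for the interaction. The lowest estimated count of a member was 46.9, and the effect of depth on the calls was not tested.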
